A study of Mus musculus with 8 samples.

Results

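Fatty acid synthesis from glucose and acetate is described here in the back skin of mice labelled knockout for Flg, the gene of the epidermal barrier protein filaggrin, through 10 genes: Fasn, Acaca, Acacb, Acly, Acss2, Me1, G6pdx, Mlxipl, Srebf1 and Thrsp. They were selected on the comparison of knockout with wild type in these same libraries, because several of them were higher in knockout, and they are 10 of 49671 genes counted. Total RNA of shaved back skin from mice aged 8 weeks was measured in 4 Flg knockout (ko/ko) libraries and 4 wild-type (wt/wt) libraries. The labels give no strain, sex, Flg allele or treatment, and do not say whether each library came from a separate mouse, so the spread between libraries may be partly technical. All 10 genes passed the filter on low counts, and each was related to Adipoq, the adiponectin gene that marks white adipocytes, library by library.

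Cells make fatty acids from cytosolic acetyl-CoA, which ATP citrate lyase (Acly) releases from citrate and the synthetase Acss2 makes from acetate. Acetyl-CoA carboxylase turns it into malonyl-CoA: the Acaca product does so in the cytosol for synthesis, whereas the Acacb product sits at the outer mitochondrial membrane, where malonyl-CoA restrains fatty acid entry for oxidation. Fatty acid synthase (Fasn) builds palmitate from malonyl-CoA with NADPH, part of which comes from malic enzyme (Me1) and from the first enzyme of the pentose phosphate pathway (G6pdx). The transcription factors SREBP-1 (Srebf1), which responds to insulin, and ChREBP (Mlxipl), which responds to glucose metabolites, drive these genes, and Thrsp is a lipogenic protein that responds to thyroid hormone. In skin, white fat, sebaceous glands and epidermis all make fatty acids.

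In knockout skin the levels of Fasn, Acaca, Acly, Acss2, G6pdx and Mlxipl in every library exceeded those in every wild-type library, whereas Acacb, Me1, Srebf1 and Thrsp overlapped between genotypes. Fasn averaged 3.26 times and Acaca 2.54 times the wild-type level. Within genotype all 10 genes had a positive slope on Adipoq, although none passed the test over all genes in edgeR. Wild-type replicate 3, the wild-type library with the most Adipoq, was the highest wild-type library for each of the 10 genes.

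Library totals were between 18483242 and 38545957 counts, and no pair of replicates agreed within counting noise. Flg itself stood at 24.5 ± 1.97 CPM (SD, n = 4) in knockout and 59.0 ± 9.77 CPM in wild type, where CPM is a gene's count scaled to the effective size of its library. Reads counted to Flg thus remained in the knockout libraries. The tissue label was checked against markers: the summed level of 10 keratinocyte genes was 12320 to 14170 CPM in knockout and 14100 to 15460 CPM in wild type, and that of 8 fibroblast genes 25780 to 37540 CPM in knockout and 22930 to 37210 CPM in wild type. Skeletal muscle genes were also abundant, with summed levels of 20310 to 25540 CPM in knockout and 16720 to 23420 CPM in wild type. In such bulk tissue, fewer cells of a type and less RNA per cell cannot be told apart.

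Fat differed between the libraries. Adipoq stood at 218, 276, 152 and 222.5 CPM in knockout replicates 1 to 4, against 119.9, 81.75, 222 and 93.6 CPM in wild-type replicates 1 to 4. Wild-type replicate 3 lay inside the knockout range, so the genotypes overlapped, and the log2 fold change of 0.75 ± 0.31 (SE) did not pass (edgeR adjusted p = 0.239). The 20 white adipocyte genes together gave 7182 to 9366 CPM in knockout and 5083 to 9150 CPM in wild type. Of these 20 genes 0 passed in edgeR, 13 were higher in knockout at an unadjusted p under 0.05, where 8.64% of all genes were, and DESeq2 called 8 higher, where it called 3.09% of all genes. Their mean log2 level, in which Adipoq itself is included, followed Adipoq over the libraries (Pearson r = 0.991, n = 8, as a description). Car3 and Lpl, the most abundant of the 20 genes, averaged 3208 and 1106 CPM in knockout and 2824 and 821 CPM in wild type. Both overlapped between genotypes, and wild-type replicate 3 had the most Car3 of all libraries, at 3884 CPM. Named after its values were seen, the leptin gene Lep had 108.5, 118, 37.5 and 101 CPM in knockout libraries. In wild-type libraries Lep, whose product adipocytes secrete, had 11.3, 12.0, 36.3 and 8.27 CPM.

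Of the other lipid-making cell types, the 13 sebaceous gland genes summed to 1450 to 2002 CPM in knockout and 1507 to 2670 CPM in wild type, with wild-type replicate 3 the highest of all 8 libraries. Of these 13 genes 5 had a fold change above 0, and 0 passed in edgeR. At an unadjusted p under 0.05 there were 1 higher and 3 lower, and DESeq2 called 0 higher and 2 lower. Krt79 and Far2, the most abundant of them, averaged 534 and 242 CPM in knockout and 594 and 274 CPM in wild type. Single genes of the list went both ways. Awat2 had 42.2 to 71.4 CPM in knockout and 8.75 to 43.4 CPM in wild type. Elovl3 had a log2 fold change of -1.54 ± 0.41 (SE) and did not pass. Both were named after their values were seen. Brown adipocyte genes gave 117.5 to 140.6 CPM in knockout and 131 to 166 CPM in wild type, and their defining marker Ucp1 was at no more than 0.158 CPM in any library. The 8 mammary epithelium genes summed to 2.03 to 2.95 CPM in knockout and 2.37 to 3.58 CPM in wild type, with the milk protein gene Wap at 0 in all 8 libraries.

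**Figure D1:**
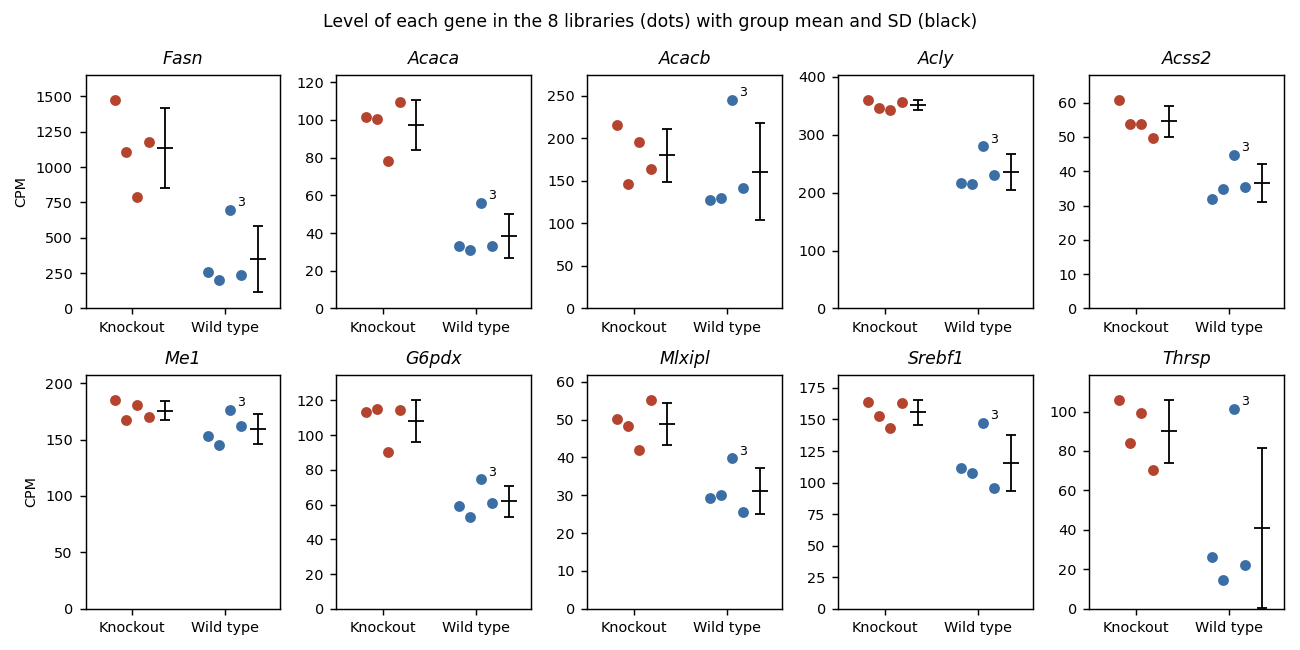
CPM of each of the 10 genes (vertical axes, from 0) in the 4 knockout and 4 wild-type libraries, one dot per library, with the group mean and SD in black; 3 marks wild-type replicate 3. For Fasn the knockout dots lie between 785 and 1478 CPM and the wild-type dots between 204 and 699 CPM, and wild-type replicate 3 is the top wild-type dot in every panel.

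Both enzymes of acetyl-CoA supply were higher in every knockout library. Acly (ENSMUSG00000020917, chromosome 11, positions 100476353 to 100528000, minus strand, mm10) had 361, 347, 343 and 356 CPM in knockout libraries, against 218, 215, 280.1 and 231 CPM in wild-type libraries. The knockout libraries lay within 1.05 times of each other, the narrowest knockout spread of the 10 genes, and above all wild-type libraries. The log2 fold change was 0.58 ± 0.10 (SE), with means of 352 ± 8.26 CPM in knockout and 236 ± 30.4 CPM in wild type (SD, n = 4 each). Acss2 (ENSMUSG00000027605, chromosome 2, positions 155517948 to 155585724, plus strand) had a change of similar size, 0.57 ± 0.11 (SE) on the log2 scale, with libraries at 49.8 to 60.9 CPM in knockout and 31.95 to 44.7 CPM in wild type. Gss and Ggt7 overlap Acss2 on the opposite strand, with 322 to 684 and 17 to 54 counts per library, and reads of Acss2 could be shared with them.

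Of the carboxylases, the groups were apart for Acaca and overlapped for Acacb. Acaca (ENSMUSG00000020532, chromosome 11, positions 84129672 to 84401651, plus strand) had 102, 100.3, 78.4 and 109.5 CPM in knockout libraries, against 33.3, 31.2, 55.9 and 33.2 CPM in wild-type libraries. Its groups did not overlap, and its log2 fold change was 1.34 ± 0.19 (SE). Acacb (ENSMUSG00000042010, chromosome 5, positions 114146535 to 114250761, plus strand) had 215, 146, 196 and 164.5 CPM in knockout libraries, against 128, 129.9, 246 and 141 CPM in wild-type libraries. Here wild-type replicate 3 was the highest of all 8 libraries and the log2 fold change was 0.17 ± 0.21 (SE). Per deposited gene length (TPM), the ratio of Acaca to Acacb was 0.266, 0.388, 0.225 and 0.376 in knockout libraries, against 0.147, 0.136, 0.128 and 0.133 in wild-type libraries. The size of this ratio depends on those lengths, which can differ from the lengths of the transcripts present. Acacb, the form tied to oxidation, had the higher TPM in every library of both genotypes, and the share of Acaca was higher in all 4 knockout libraries, with wild-type replicate 3 no exception among wild type.

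Fatty acid synthase had the largest difference of the 10. Fasn (ENSMUSG00000025153, chromosome 11, positions 120805846 to 120824547, minus strand) had 1478, 1107, 785 and 1178 CPM in knockout libraries, against 257, 204, 699 and 236 CPM in wild-type libraries. The lowest knockout library, replicate 3, stood a little above wild-type replicate 3, which was itself 3.02 times the mean of the other wild-type libraries. The log2 fold change was 1.70 ± 0.40 (SE), with means of 1137 ± 284 CPM in knockout and 349 ± 234 CPM in wild type (SD, n = 4 each). This difference did not pass (edgeR adjusted p = 0.0757), and Fasn was called in 3 of 13 alternative fits.

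Of the NADPH-producing enzymes, the groups were apart for G6pdx and overlapped for Me1. G6pdx (ENSMUSG00000031400, chromosome X, positions 74409483 to 74429194, minus strand) had 113.5, 115, 90.05 and 114 CPM in knockout libraries, against 59.2, 52.9, 74.5 and 61.0 CPM in wild-type libraries. All 4 knockout libraries were above all wild-type libraries, and the log2 fold change was 0.81 ± 0.12 (SE). Me1 (ENSMUSG00000032418, chromosome 9, positions 86581371 to 86695953, minus strand) overlapped, at 167 to 185 CPM in knockout and 145 to 176.5 CPM in wild type, with a log2 fold change of 0.14 ± 0.08 (SE). Reads of G6pdx could be shared with G6pd2, a near copy on chromosome 5, which passed the test at 8.18 ± 1.79 CPM in knockout and 4.18 ± 0.85 CPM in wild type (log2 fold change 0.98, edgeR adjusted p = 0.0440), and with Ikbkg, which overlaps G6pdx on the opposite strand and differed by 0.08 (adjusted p = 0.538). How the counting treated strand is not given in the sources used here.

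Of the regulators, Mlxipl (ENSMUSG00000005373, chromosome 5, positions 135089890 to 135138382, plus strand) had 50.2, 48.3, 41.9 and 55.2 CPM in knockout libraries, against 29.3, 30.1, 39.8 and 25.5 CPM in wild-type libraries. Its groups did not overlap, although knockout replicate 3 and wild-type replicate 3 lay close together, and its log2 fold change was 0.65 ± 0.14 (SE). Srebf1 (ENSMUSG00000020538, chromosome 11, positions 60199089 to 60222581, minus strand) had 164, 153, 143 and 163 CPM in knockout libraries, against 112, 107, 147 and 96.05 CPM in wild-type libraries. It overlapped through wild-type replicate 3 alone, with a log2 fold change of 0.43 ± 0.12 (SE). The end of Srebf1 overlaps Rai1 on the opposite strand, whose own difference was 0.27 (edgeR adjusted p = 0.202).

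Thrsp (ENSMUSG00000035686, chromosome 7, positions 97412938 to 97417730, minus strand) had 106, 83.8, 99.4 and 70.5 CPM in knockout libraries, against 26.3, 14.4, 101 and 22.4 CPM in wild-type libraries. Wild-type replicate 3 was 4.96 times the mean of the other 3 wild-type libraries and lay inside the knockout range, the widest wild-type spread of the 10 genes. The log2 fold change was 1.13 ± 0.57 (SE).

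The promoters were read because lipogenic genes are known targets of SREBP-1 and ChREBP. RefSeq (GRCm38.p6) gave 14 start sites for the 10 genes, and the 250 bases upstream of each were searched on both strands. The sterol response core TCACNCCAC was found in 1 of the 14 windows, against 1.05% of 32851 mouse promoter windows, and the E-box CACGTG in 1, against 6.02%. CCAAT was found in 8 windows, against 33.8%, and the GC box GGGCGG in 7, against 32.7%. The 4 windows below show the gene with the most CCAAT boxes (Fasn), the carboxylase with the larger difference (Acaca) and both starts of the regulator that holds the sterol core and the E-box (Mlxipl), 5′ to 3′ on the gene's strand, with motif letters in capitals.
Fasn chr11:120824548-120824797, minus strand: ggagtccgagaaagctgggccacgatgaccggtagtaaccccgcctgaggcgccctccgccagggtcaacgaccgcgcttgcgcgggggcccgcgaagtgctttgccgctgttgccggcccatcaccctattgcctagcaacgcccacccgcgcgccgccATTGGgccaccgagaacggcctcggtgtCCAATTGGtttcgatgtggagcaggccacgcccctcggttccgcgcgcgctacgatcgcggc
Acaca chr11:84195188-84195437, plus strand: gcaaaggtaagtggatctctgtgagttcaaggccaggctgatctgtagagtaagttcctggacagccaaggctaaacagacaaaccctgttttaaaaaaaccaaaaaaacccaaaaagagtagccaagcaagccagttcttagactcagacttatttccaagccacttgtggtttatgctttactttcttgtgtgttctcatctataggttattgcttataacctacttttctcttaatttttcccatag
Mlxipl chr5:135089640-135089889, plus strand: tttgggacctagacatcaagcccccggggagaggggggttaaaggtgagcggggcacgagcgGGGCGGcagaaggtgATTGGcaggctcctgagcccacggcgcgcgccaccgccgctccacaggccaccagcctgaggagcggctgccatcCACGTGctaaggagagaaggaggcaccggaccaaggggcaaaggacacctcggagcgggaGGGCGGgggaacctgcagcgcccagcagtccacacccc
Mlxipl chr5:135106641-135106890, plus strand: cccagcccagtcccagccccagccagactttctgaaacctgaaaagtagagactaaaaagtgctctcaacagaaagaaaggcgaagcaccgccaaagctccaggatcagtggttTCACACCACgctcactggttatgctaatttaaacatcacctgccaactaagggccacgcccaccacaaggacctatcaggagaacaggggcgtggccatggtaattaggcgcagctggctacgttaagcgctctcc

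In the Fasn window the capitals are 3 CCAAT boxes, at -90 to -86, -62 to -58 and -59 to -55 from the start site, the last pair overlapping. The Acaca window, whose start lies inside the gene as counted, held none of the 4 motifs. The counted gene begins upstream at position 84129672, and the bases before that position were not searched. The only Acacb window, at 114165268 to 114165517, likewise lies inside its gene, which begins at 114146535. Both windows count among those searched. The first Mlxipl window held the E-box at -98 to -93, with CCAAT and GC boxes, and the second the sterol core at -136 to -128. A match describes letters only, and a motif missing from these windows may lie elsewhere.

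In the edgeR quasi-likelihood fit over 19099 genes, 5 of the 10 genes were higher in knockout at an adjusted p under 0.05 (Acaca, Acly, Acss2, G6pdx and Mlxipl) and 0 were lower, where 0.712% of all genes were called higher. Groups did not overlap, with knockout above, in 6 of the 10 genes and in 5.57% of all genes. The median log2 fold change was 0.61 over the 10 genes and -0.02 over all genes tested. These values chose the genes, so nothing is read from these counts. The number called rested on single libraries: it was 8 without wild-type replicate 3, where 3.49% of all genes were called higher, and 0 without knockout replicate 2 (0.0463% of all genes) or knockout replicate 4 (0.0569%). It was 1 without wild-type replicate 4 (0.191%), 2 without knockout replicate 1 (0.263%) or wild-type replicate 1 (0.192%), 3 without knockout replicate 3 (0.375%) and 4 without wild-type replicate 2 (0.970%). Each of the 10 log2 fold changes stayed above 0 in all 13 alternative fits.

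TPM divides counts by the deposited length of each gene. That length can differ from the length of the transcripts present, so comparisons between genes are approximate. On this scale the 10 genes together gave 1307, 1126, 999 and 1188 TPM in knockout libraries, against 538, 514, 984 and 527 TPM in wild-type libraries. Wild-type replicate 3 fell just short of the lowest knockout library. Fasn was the most abundant of the 10 in knockout, at 335 ± 86.6 TPM, and stood at 100.5 ± 72.9 TPM in wild type (SD, n = 4 each), where Acly and Me1 had higher means. Acly followed in knockout at 214.5 ± 9.89 TPM and led in wild type at 138.5 ± 23.9 TPM. Me1 (147 ± 5.49 TPM in knockout and 128 ± 15.2 TPM in wild type), Thrsp (132 ± 20.5 TPM and 59.7 ± 61.9 TPM) and G6pdx (113 ± 15.2 TPM and 62.3 ± 11.6 TPM) came next in knockout, and their order there did not differ beyond the spread between libraries for Me1 and Thrsp or for Thrsp and G6pdx. The lower levels in knockout were those of Srebf1 at 89.1 ± 7.72 TPM, Acacb at 60.2 ± 9.52 TPM, Mlxipl at 28.5 ± 4.01 TPM, Acaca at 18.4 ± 2.995 TPM and Acss2 at 17.3 ± 1.29 TPM, the last pair within their spread. Fasn made up 33.0, 29.1, 22.3 and 30.2% of the summed TPM in knockout libraries, against 13.1, 11.4, 21.3 and 12.0% in wild-type libraries, so wild-type replicate 3 stood near knockout replicate 3.

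**Figure D2:**
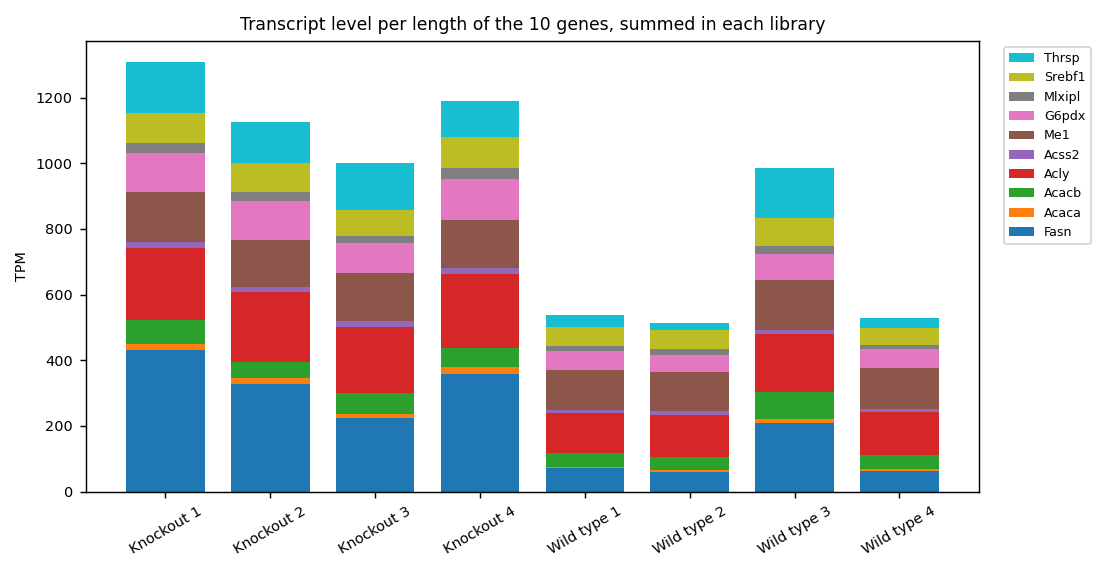
TPM of the 10 genes stacked in each library (vertical axis, from 0), knockout replicates 1 to 4 on the left and wild-type replicates 1 to 4 on the right. The summed bars are 999 to 1307 TPM in knockout and 514 to 984 TPM in wild type, where replicate 3 is the tall bar, and most of the added height is Fasn, Acly and Thrsp.

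The relation to fat was examined within genotype, which does not use the difference between genotypes that chose the genes. In a model with genotype and log2 CPM of Adipoq, all 10 genes had a positive slope, with Fasn and Thrsp the pair whose fitted slopes were above 1. The slope was 1.13 ± 0.18 (SE) log2 units per log2 unit of Adipoq for Fasn and 1.35 ± 0.35 for Thrsp. It was 0.57 ± 0.10 for Acaca, 0.40 ± 0.20 for Acacb, 0.35 ± 0.11 for Mlxipl, 0.33 ± 0.08 for G6pdx and 0.33 ± 0.09 for Srebf1. The enzymes of acetyl-CoA supply and Me1 had the flattest slopes, 0.20 ± 0.09 for Acly, 0.20 ± 0.11 for Acss2 and 0.09 ± 0.09 for Me1.

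Of these slopes 0 of 10 passed an adjusted p under 0.05 over all genes in edgeR, where 0.0419% of 19098 genes did. The lowest adjusted p were 0.112 for Fasn and 0.145 for Acaca. At an unadjusted p under 0.05 the slope was positive in 7 of the 10 genes (all but Acacb, Acss2 and Me1), against 4.57% of all genes. The median slope was 0.34 over the 10 genes and -0.01 over all genes. DESeq2 called Fasn and Acaca, where it called 0.476% of all genes with a positive slope. Fasn was also called without knockout replicate 2 (0.0514% of all genes), or with the mean of the adipocyte list in place of Adipoq (0.0628%), and Acaca with no filter on low counts (0.127%).

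Wild-type replicate 3 lay farthest from its genotype mean in Adipoq. Without it the slopes fell to 0.66 for Fasn and 0.12 for Thrsp, and those of Acacb, Acss2 and Me1 were -0.35, -0.07 and -0.07. G6pdx was the gene whose slope was not smaller, at 0.38. Among all genes, 8 passed the slope test with all libraries and 0 without that library. The 8 included the adipocyte genes Plin1 (1.42 ± 0.12), which encodes the lipid droplet protein perilipin, Cfd (0.81 ± 0.10) and Lipe, hormone-sensitive lipase, and also Pcx (1.01 ± 0.13, adjusted p = 0.0447), the pyruvate carboxylase that replenishes oxaloacetate for citrate export.

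As deviations from the genotype means, log2 CPM correlated with that of Adipoq at Pearson r = 0.924 for Acaca (two-sided exact permutation p = 0.0226 within genotype, n = 8), 0.917 for G6pdx (exact permutation p = 0.0122), 0.907 for Fasn (exact permutation p = 0.0208) and 0.856 for Srebf1 (exact permutation p = 0.0399). Spearman's rho was 0.905, 0.952, 0.905 and 0.810 for these genes in the same order. Adjusted over the 10 relations computed, none passed 0.05: the values were 0.0752 for Acaca, G6pdx and Fasn and 0.0998 for Srebf1. The smallest unadjusted p that the 576 pairings allow is 0.00174. For the other 6 genes r was between 0.484 (Me1) and 0.805 (Mlxipl), with exact permutation p of 0.0521 or more. Without wild-type replicate 3, r was 0.844 for G6pdx (exact permutation p = 0.0486, adjusted 0.417), 0.751 for Acaca (exact permutation p = 0.118) and 0.687 for Fasn (exact permutation p = 0.125), and below 0 for Acacb, Acss2 and Me1.

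Pooled over all 8 libraries, r with Adipoq was 0.923 for Fasn, 0.921 for Srebf1, 0.894 for Thrsp, 0.884 for Mlxipl, 0.882 for G6pdx, 0.881 for Acaca, 0.844 for Acly, 0.803 for Acss2, 0.708 for Me1 and 0.584 for Acacb, with rho between 0.524 and 0.905. These values include the genotype difference that chose the genes and are given without a test. Without the 2 libraries farthest from the median Adipoq level, wild-type replicates 2 and 4, r was between 0.318 for Acacb and 0.836 for Srebf1.

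**Figure D3:**
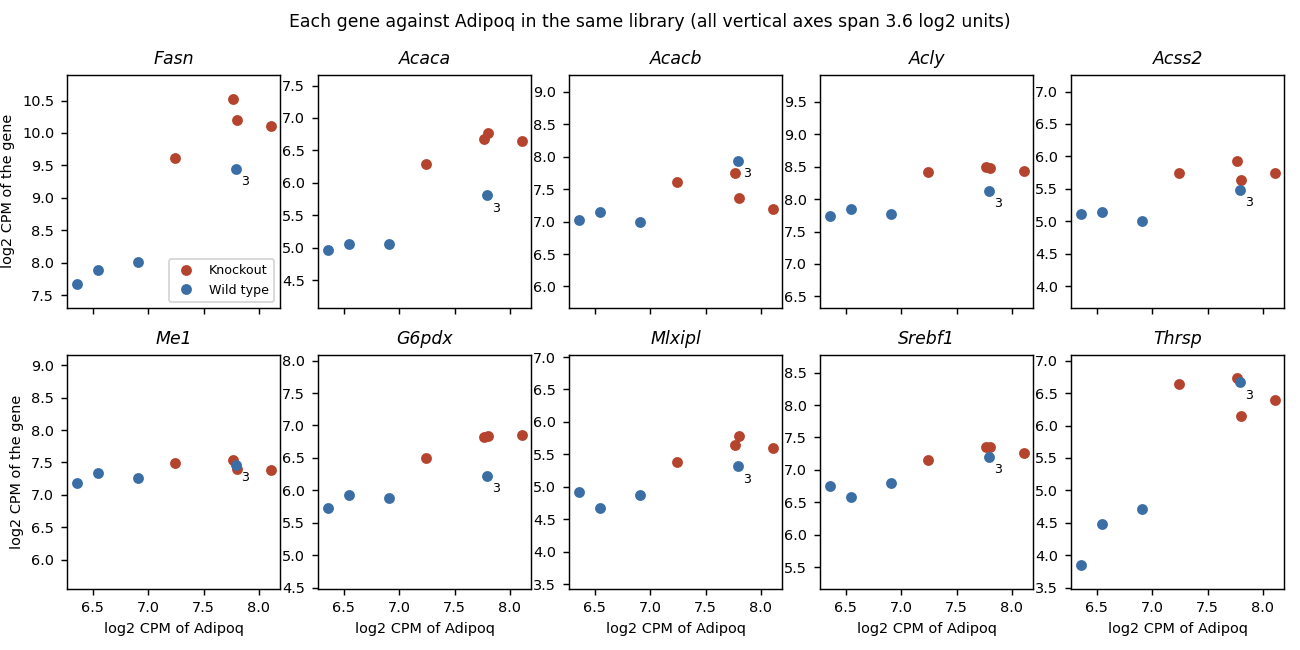
Log2 CPM of each gene (vertical axes) against log2 CPM of Adipoq (horizontal axes), one dot per library, knockout in red and wild type in blue; 3 marks wild-type replicate 3. At the Adipoq level of that library the nearest knockout dots of Fasn, Acaca and G6pdx lie above it, while those of Me1 and Thrsp lie around it.

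Compared at equal Adipoq, the genotype difference was smaller for all 10 genes. It was 0.91 ± 0.12 (SE) on the log2 scale for Acaca, 0.95 ± 0.23 for Fasn and 0.53 ± 0.10 for G6pdx, which are 67.6%, 55.5% and 66.1% of the differences without Adipoq in the model. Acly kept 0.42 ± 0.11 (72.6%) and Acss2 0.42 ± 0.13 (72.9%). Mlxipl kept 0.38 ± 0.14, Srebf1 0.18 ± 0.11, Thrsp 0.48 ± 0.40 and Me1 0.07 ± 0.10, and Acacb stood at -0.11 ± 0.23.

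Of the 10 genes 0 were called at equal Adipoq in edgeR, where 0.0262% of all genes were, and 4 were higher in DESeq2, where 1.04% of all genes were. At an unadjusted p under 0.05, 6 were higher in knockout, where 5.13% of all genes were. These values rest on the contrast that chose the genes and are a description. Direction depended on single libraries or covariates in 3 genes: Acacb was at 0.84 without wild-type replicate 3 and at 0.10 with the sebaceous list added, Thrsp at -0.21 and Me1 at 0.00 without knockout replicate 3. Without wild-type replicate 3 the difference of Thrsp at equal Adipoq was 1.97 and that of Fasn 1.54.

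Divided by Adipoq in the same library, Fasn gave a ratio of 6.79, 4.02, 5.18 and 5.29 in knockout libraries, against 2.14, 2.50, 3.15 and 2.52 in wild-type libraries. It was the one gene of the 10 whose ratios did not overlap, with geometric means differing 2.05-fold; over all genes 0.157% had every knockout ratio above every wild-type ratio. The ratios rest on the genotype contrast that chose the genes and are a description. Acaca and Thrsp had higher ratios in knockout by 1.46 and 1.64 times, and the other 7 genes were at 0.622 (Me1) to 0.987 (G6pdx) times the wild-type ratio. Division assumes a slope of 1, which was above the fitted slopes of all genes but Fasn and Thrsp.

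**Figure D4:**
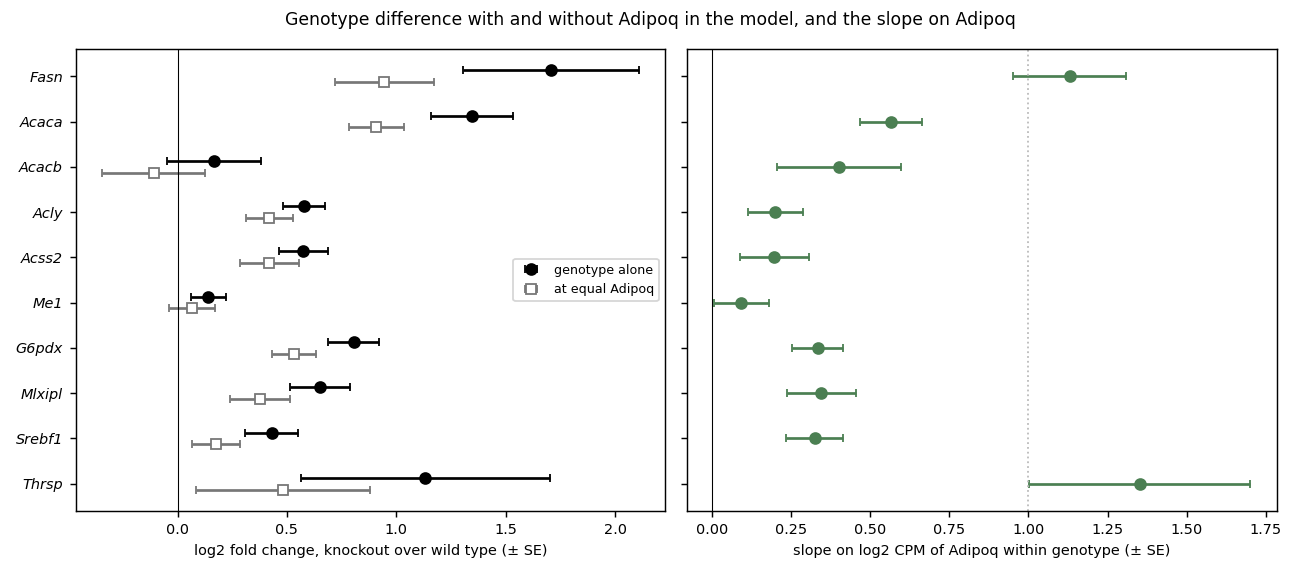
Left, log2 fold change of each gene, knockout over wild type (± SE), with genotype alone (filled circles) and at equal Adipoq (open squares); right, slope on log2 CPM of Adipoq within genotype (± SE), with a dotted line at a slope of 1. The open squares lie left of the filled circles for all 10 genes, and the slopes of Fasn and Thrsp lie right of the dotted line.

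The genes whose log2 CPM was most like that of Fasn over the 8 libraries, among the 11911 genes whose log2 CPM averaged 3 or more, were Pcx (Pearson r = 0.997), Ece1 (0.993), which encodes an endothelin-converting enzyme, and Aldh1l1 (0.990), an enzyme of folate metabolism. Pcx stood at 289, 252, 158 and 257 CPM in knockout libraries, against 63.6, 49.4, 140.2 and 56.3 CPM in wild-type libraries, the same order of knockout replicate 1 highest, knockout replicate 3 lowest of knockout and wild-type replicate 3 highest of wild type as in Fasn. For Acaca they were Pcca (0.988), a subunit of propionyl-CoA carboxylase, Pcx (0.988) and Nup188 (0.987), a nuclear pore component. For G6pdx they were Lpgat1 (0.989), Cav1 (0.987), the caveolin of adipocyte and other membranes, and Pcx (0.982). Thrsp was nearest to Gga2 (0.993), Pygb (0.987), a glycogen phosphorylase, and Car5b (0.986). Adipoq ranked 198 for Fasn, 357 for Acaca, 295 for G6pdx and 186 for Thrsp. These are descriptions over all 8 libraries, which differ in genotype and depth, so the r values include the genotype difference that chose the genes. Of all genes compared, 78 exceeded 0.95 with Fasn.

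In the surrounding pathway most tested genes of each list did not pass the edgeR test. For every list below, the matching share over all genes was 0.712% called higher, and 134 of 19099 genes were called lower. The lists were written with earlier results of these data known, so nothing is read from their counts. In the list of citrate, acetyl-CoA and NADPH supply, 1 of 22 tested genes passed as higher and 0 as lower in edgeR, with a median log2 fold change of 0.17. Tkt, the transketolase of the pentose phosphate pathway, rose to 193 ± 19.3 CPM in knockout, against 124 ± 20.2 CPM in wild type (adjusted p = 0.0406). Pcx had a log2 fold change of 1.63 ± 0.34 and did not pass (adjusted p = 0.0562). Named after their values were seen, the citrate carrier gene Slc25a1 was at 0.24 ± 0.15 (adjusted p = 0.393) and Pgd, which makes NADPH after G6pdx, at 0.52 ± 0.13 (adjusted p = 0.0825).

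Downstream, 3 of 21 genes of desaturation, elongation and activation passed as higher (0.712% of all genes) and 0 as lower, with a list median of 0.00. All 3 were stearoyl-CoA desaturases, which place the first double bond in fatty acids. Scd1 had 6592, 5526, 3091 and 4893 CPM in knockout libraries, against 1750, 1506, 2673 and 1881 CPM in wild-type libraries, a log2 fold change of 1.36 ± 0.24 (adjusted p = 0.0328). Scd2 rose to 214 ± 15.8 CPM in knockout, against 143 ± 21.9 CPM in wild type (adjusted p = 0.0425), and the low-level Scd4 to 2.68 ± 0.46 CPM, against 0.90 ± 0.32 CPM (adjusted p = 0.0231). Reads of these similar genes may be split between them. Elovl6, which lengthens palmitate, named after its value was seen, was at 0.17 ± 0.13 (adjusted p = 0.505).

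Triglyceride assembly had 0 of 11 genes past the edgeR test, with a median of 0.17; 4 were higher at an unadjusted p under 0.05 (8.64% of all genes), and DESeq2 called 3 (3.09% of all genes). Agpat2, an acyltransferase of glycerolipid synthesis, was at 0.96 ± 0.22 (adjusted p = 0.0657) and the low-level Mogat1 at 2.15 ± 0.53 (adjusted p = 0.0733). Mitochondrial fatty acid synthesis had 0 of 8 past the test, 0 at an unadjusted p under 0.05 and 0 in DESeq2, with a median of -0.03. Fatty acid oxidation had 0 of 18 in edgeR, with 14 genes below 0 and a median of -0.12; at an unadjusted p under 0.05 there were 2 higher and 6 lower (10.9% of all genes were lower), and DESeq2 called 1 higher and 2 lower (3.07% of all genes lower). Of the oxidation genes Acadl, a long-chain acyl-CoA dehydrogenase, was at -0.32 ± 0.09 (adjusted p = 0.0934).

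Of 15 genes in the list of SREBP processing, partners and targets, 1 passed as higher and 0 as lower in edgeR, with a median of 0.04. It was Pnpla3, a lipid droplet hydrolase and SREBP-1 target, while no gene that processes or partners SREBP passed. Pnpla3 stood at 148, 154.5, 123 and 165.5 CPM in knockout libraries, against 49.7, 48.9, 59.4 and 41.4 CPM in wild-type libraries (log2 fold change 1.57 ± 0.12, edgeR adjusted p = 0.00109). Its groups were far apart, its slope on Adipoq was 0.31 and its difference at equal Adipoq was 1.31. Among 18 cholesterol genes driven by SREBP-2, 1 passed as higher and 0 as lower, 14 were below 0 and the median was -0.12. Named after its value was seen, Srebf2 was at 0.15 ± 0.07 (adjusted p = 0.274).

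Among the ChREBP partners and glucose-response genes, 0 of 8 tested passed as higher and 1 as lower. Klf10, a zinc finger repressor, fell to 56.7 ± 7.51 CPM in knockout, against 88.5 ± 13.2 CPM in wild type (adjusted p = 0.0432). Mlx, the binding partner of ChREBP, named after its value was seen, was at 0.04 ± 0.09 (adjusted p = 0.853). Genes that control acetyl-CoA carboxylase gave 0 of 15 past the edgeR test (1 higher and 2 lower at an unadjusted p under 0.05, 0 in DESeq2) and a median of -0.01. Insulin signalling gave 0 of 13 in edgeR, with 11 above 0 and a median of 0.21; 7 were higher at an unadjusted p under 0.05 (8.64% of all genes), and DESeq2 called 4 (3.09% of all genes). Pik3r1, the regulatory subunit of PI3-kinase, was at 0.50 ± 0.11 (adjusted p = 0.0562).

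Leaving out wild-type replicate 3 in the list counts was a setting added after seeing the data. In it 3.49% of all genes were called higher and 6.82% in either direction. Without that library 6 genes of citrate and NADPH supply and 6 of insulin signalling passed as higher. So did 5 of triglyceride assembly and 5 of desaturation, elongation and activation. In that setting the counts were 2 higher for the SREBP list, 2 higher for cholesterol targets and 1 higher and 1 lower for the ChREBP list. They were 2 higher and 2 lower for oxidation, and 0 for carboxylase control and mitochondrial synthesis. The higher adipocyte and Adipoq levels of that library are given above, and their part in these counts was not tested.

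**Figure D5:**
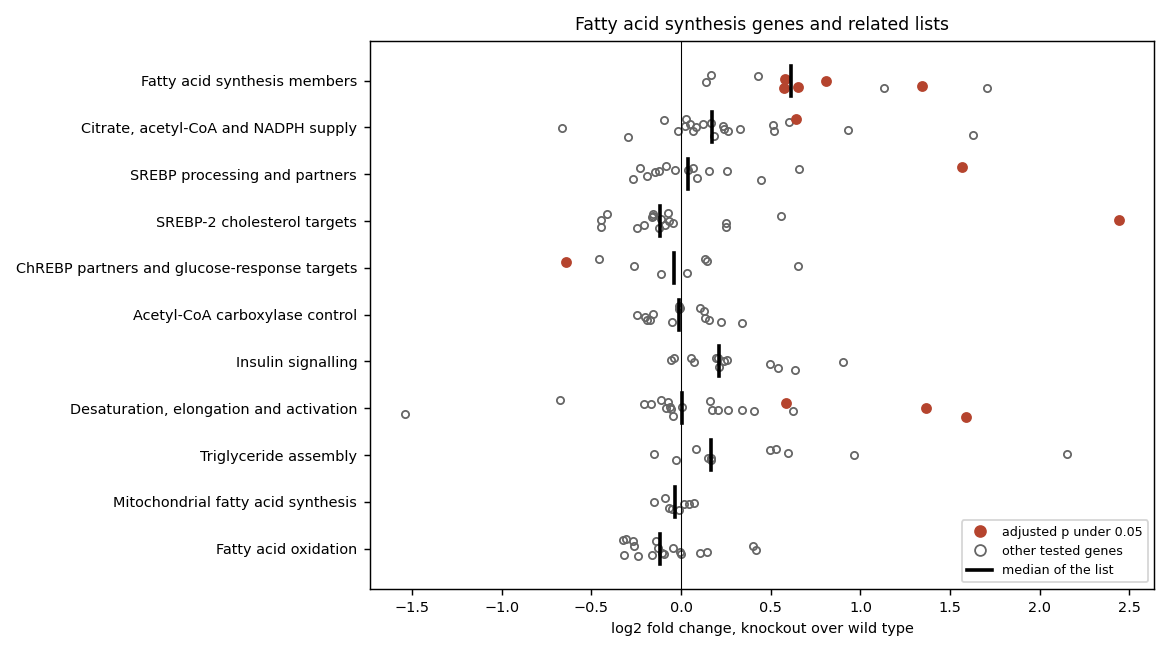
Log2 fold change, knockout over wild type (horizontal axis), of every tested gene in the 10 fatty acid synthesis genes (top) and in each related list; filled red dots passed an adjusted p under 0.05, open dots did not, and black bars are list medians. The top list has 5 red dots and a median of 0.61, and the medians of the other lists lie between -0.12 and 0.21.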

How the data were processed

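The deposited values are whole-number read counts per gene, aligned with GSNAP to mm10 and counted with featureCounts 1.6.2, per the submitters' processing notes. The labels name 2 library protocols, a SMART protocol and a directional kit, and the strand setting and the handling of multiply aligned reads are not stated. Of 49763 features, 92 spike-ins with at most 1 count in any library were left out. GENCODE for mm10 gave a symbol to 49326 of the 49671 genes.

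Counts were filtered with filterByExpr (19099 genes kept), scaled with TMM and fitted with edgeR 4.0.16 (R 4.3.3) by the robust quasi-likelihood test, with Benjamini-Hochberg adjustment over all genes tested and calls at 0.05. A second model added log2 CPM of Adipoq (prior count 2), which left Adipoq untested; its Adipoq term is the slope and its genotype term the difference at equal Adipoq. Each SE of an edgeR fold change or slope was derived from its test, as the absolute estimate divided by the square root of its F statistic. CPM used TMM library sizes and TPM the deposited gene lengths. The main fits used all 8 libraries. The models were also run on simulated data in which Adipoq carried no counting noise, so error in Adipoq as a measure of fat was not tested. Replicates are numbered in sample order, so a number pairs nothing. The 10 genes, the pathway and marker lists and the tests were chosen with earlier results of these data known. Named pathway genes are those called in each list or, with fewer than 2 called, the 2 with the smallest p; the most similar genes are the 3 with the highest r. Of these the text gives a part, 2 named pathway genes are not reported here, and genes outside the rule are marked as named after their values were seen. Alternatives were RLE factors, library size alone, no filter, DESeq2 1.42.0, limma 3.58.1 voom with quality weights, the adipocyte list mean in place of Adipoq, a sebaceous covariate, and each library left out in turn. The adipocyte list includes Adipoq, so its mean is not independent of it. Promoter sequences come from RefSeq.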

Additional observations from a re-analysis of the deposited data

Results flagged for a closer look

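In groups of 4 libraries, a library was set apart where its gap to the nearest other library, divided by the whole range of the group, exceeded Dixon's 95% critical value. Of 42 groups checked 9 exceeded it, and chance gives about 1 in 20. Wild-type replicate 3 was the high library in 5 of them. The gap was 0.893 of the wild-type range for Fasn, 0.917 for Acaca, 0.885 for Acacb, 0.863 for Thrsp and 0.842 for the summed sebaceous gland genes. Adipoq was also highest of wild type in that library, 2.28 times the mean of the others, and the part of fat or sebaceous glands in the 4 gene values was not tested. G6pdx was lowest of knockout in knockout replicate 3, with a gap of 0.94, and that library also had the lowest Adipoq level of knockout. The summed keratinocyte genes had their wild-type minimum in replicate 2 (0.897), the anagen hair genes highest of knockout in knockout replicate 4 (0.937; 95.4 CPM in that library) and the endothelial genes lowest of knockout in knockout replicate 2 (0.89).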

How the results depend on the processing

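The number of genes called between genotypes was 502 with no filter, 1177 with DESeq2, 2535 with voom and 11 to 1325 with a library left out. On the slope it was 56 with no filter, 136 with DESeq2, 13 with the adipocyte list, 2 with the sebaceous covariate and 0 to 11 with a library left out. At equal Adipoq it was 8 with RLE factors, 134 with no filter, 394 with DESeq2, 19 with voom, 2 with the adipocyte list, 30 with the sebaceous covariate and 0 to 246 with a library left out. Of the 10 genes, between genotypes 8 were called higher with voom, where 1174 of 19099 genes were called higher. With a library left out it was 0 to 8, and the shares over all genes are given above. On the slope 1 was called with no filter (0.127% of all genes with a positive slope) and 2 with DESeq2 (0.476%). It was 1 with the adipocyte list (0.0628%) and 0 to 1 with a library left out (0.0514% without knockout replicate 2, where it was 1). At equal Adipoq 1 was called with no filter, where 53 of all genes were higher, and 4 with DESeq2 (1.04% of all genes higher). It was 1 with voom, where 12 of 19098 genes were higher, and 1 with the sebaceous covariate, where 25 were. With a library left out it was 0 to 2, the 2 without wild-type replicate 2, where 102 of all genes were higher. DESeq2 called 3.09% of all genes higher and 3.07% lower between genotypes. Among the lists, it called 5 genes of citrate and NADPH supply higher (1 in edgeR) and 2 of the SREBP list (1 in edgeR). Of desaturation, elongation and activation it called 4 higher and 2 lower (3 higher in edgeR). The cause was not tested. The list counts with DESeq2 and the counts over the 10 genes between genotypes and at equal Adipoq were added after seeing the data.

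Directions turned in few cases. With voom the slope of Me1 was -0.024 and the difference of Acacb at equal Adipoq 0.28, and with the sebaceous covariate this difference of Acacb was 0.099. With a library left out, it was -0.36 (without knockout replicate 3) to 0.84 (without wild-type replicate 3). Over the same settings the slopes were -0.35 to 0.55 for Acacb, -0.073 to 0.235 for Acss2 and -0.066 to 0.136 for Me1, lowest without wild-type replicate 3, and the differences at equal Adipoq were -0.21 to 1.97 for Thrsp and -0.00298 to 0.276 for Me1, lowest without knockout replicate 3. The slope model rests on 8 libraries, and each of the 10 genes had at least 364 counts in every library.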
